A study of Mus musculus with 6 samples.

Results

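The 33 genes described here encode the core machinery of autophagy and the receptors that bring cargo to it, and they were chosen by name. All 33 of 33 were found among the 36706 genes in the tables, and all 33 passed the filter on low counts. Messenger RNA was sequenced from bone marrow-derived macrophages of WT mice, which are macrophages grown in culture from bone marrow cells with the growth factor M-CSF. There were 3 libraries of macrophages treated with the macrophage-activating cytokine IFN-γ (interferon-gamma) and 3 libraries of untreated macrophages, both labelled 3 h. Both groups shared the WT genotype and the culture with 20 ng/mL M-CSF, and the labels give no age, sex or strain of the mice. The labels do not say whether replicates are separate mice or cultures, so p-values measure the spread between these libraries, which may be technical.

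Autophagy encloses a portion of the cytoplasm in a double membrane, the autophagosome, and delivers it to lysosomes for breakdown. A kinase complex built on ULK1 starts the process, a lipid kinase complex built on Beclin 1 marks the membrane, and a pair of linked conjugation reactions attach ubiquitin-like proteins of the ATG8 family to that membrane. Cargo receptors bind ubiquitin-tagged cargo on the one side and ATG8 proteins on the other. In macrophages, autophagy proteins are known for their part in the defence against intracellular bacteria and parasites, including defence that IFN-γ activates.

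Total counts ran from 28133342 to 34233607 per library, and a floor of 3 counts in 1 library stood at 0.089 to 0.101 CPM, for counting error only. CPM are counts divided by library size, after TMM correction of that size. Untreated replicate 2 differed from the other untreated libraries by -0.139 log2 units per doubling of exon length, against slopes from -0.037 to 0.1 in the other 5 libraries. Among the members it was the highest untreated library for 13 genes with a median exon length of 2013 bases, and the lowest for 18 genes with a median of 4522.5 bases. All 8 macrophage markers had means of at least 1 CPM in both groups, with a summed level of 20780 to 22090 CPM with IFN-γ and 19580 to 21160 CPM untreated. The 7 neutrophil markers summed to 134 to 148 CPM with IFN-γ and 78.6 to 103 CPM untreated, mostly S100a8 and S100a9. Ngp had a mean of 16.7 CPM with IFN-γ and 9.49 CPM untreated, and Mpo 1.21 and 0.852 CPM. S100a8, S100a9 and Ngp were each higher in every IFN-γ library than in any untreated library. Elane and Camp had means under 1 CPM in both groups, and Ly6g was at a mean of 0.0205 CPM with IFN-γ and 0.0113 CPM untreated. The 4 endothelial markers summed to 17.3 to 21.7 CPM with IFN-γ and 12.2 to 16.1 CPM untreated, and the 6 dendritic cell markers to 5.44 to 6.06 CPM with IFN-γ and 1.84 to 2.19 CPM untreated. T, B and NK cell, mast cell, erythroid and stromal markers each summed to under 5 CPM in every library, and Cd3e, Prf1 and Fcer1a were at 0 in all 6. The part of such cells in the results was not tested, and in bulk samples fewer cells of a type and less RNA per cell cannot be told apart.

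The changes after IFN-γ were small and ran in both directions, and the largest in size were the rises of the kinase gene Tbk1 and the cargo receptor gene Tax1bp1. Of the 33 genes, 6 rose (Tbk1, Tax1bp1, Optn, Uvrag, Atg16l1 and Becn1) and 4 fell (Atg101, Ulk1, Nbr1 and Ulk2), by edgeR's quasi-likelihood test with Benjamini-Hochberg adjusted p under 0.05 over 12968 genes. These 10 calls make 30.3% of the members, against 36.4% of all genes tested, of which 19.6% were called higher and 16.8% lower. None of the 33 changed by 2-fold or more, called or not, while 8.1% of all genes were called with a change of at least 2-fold. Only Tbk1 and Tax1bp1, or 6.06%, were called with a log2 fold change of at least 0.5 in either direction, against 19.3% of all genes. The log2 fold changes of the members ran from -0.46 to 0.60, with a median of 0.006, against a median of -0.014 over all genes. The median size of change was 0.17 log2 units in the members and 0.22 over all genes. The IFN-γ and untreated libraries did not overlap for 17 of the 33 genes, or 51.5%, against 50.1% of all genes.

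**Figure D1:**
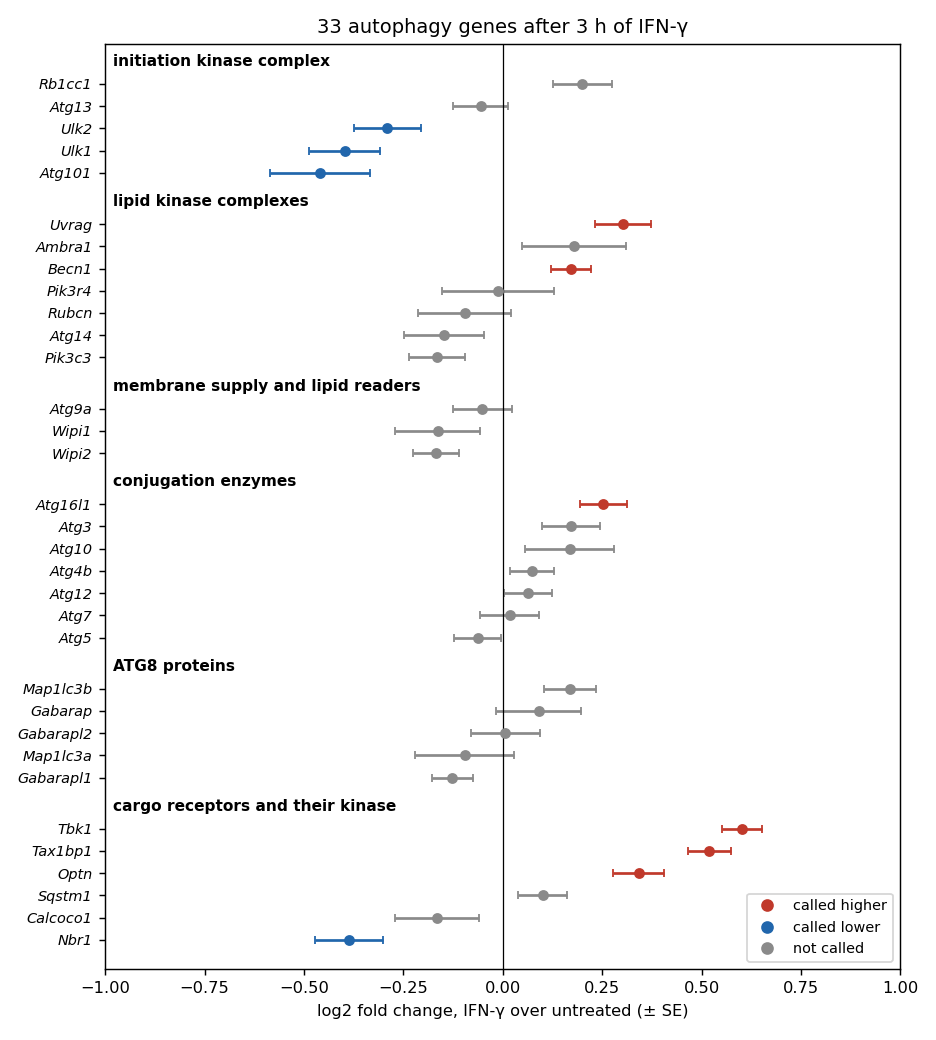
Log2 fold change (x axis, IFN-γ over untreated, point ± SE) of each of the 33 genes, grouped by role and ordered by value within a role. Tbk1 at 0.60 and Tax1bp1 at 0.52 stand at the right end, and Atg101 at -0.46 at the left end, with 23 grey points that were not called between.

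The count of calls depended on single libraries, on scaling and on the threshold. Without untreated replicate 2, 10 members were higher and 6 lower, against 24% and 21.1% of all genes. The 4 added to the higher side were Atg3, Map1lc3b, Gabarap and Sqstm1, and the 2 added to the lower side were Wipi2 and Pik3c3. Without IFN-γ replicate 2, 3 were higher and 2 lower, against 15.2% and 11% of all genes. With each library's trend on exon length taken out, 10 were higher and 6 lower, against 25.8% and 20.2% of all genes. At a threshold of 0.01, 3 were higher and 2 lower, against 13.8% and 9.58% of all genes. Scaling by total counts shifted the median of all genes by -0.17 log2 units, and 2 members were then higher and 12 lower, against 12.8% and 34.9% of all genes. Upper quartile scaling shifted it by -0.147, with 3 members higher and 13 lower, against 13.9% and 31.6% of all genes. Under TMM scaling, used for every CPM and fold change given without another scaling, 53.8% of all calls were higher, against 26.9% with total counts and 30.6% with the upper quartile. The 4 genes Tbk1, Tax1bp1, Nbr1 and Ulk1 kept their call and direction under each of 16 alternatives.

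**Figure D2:**
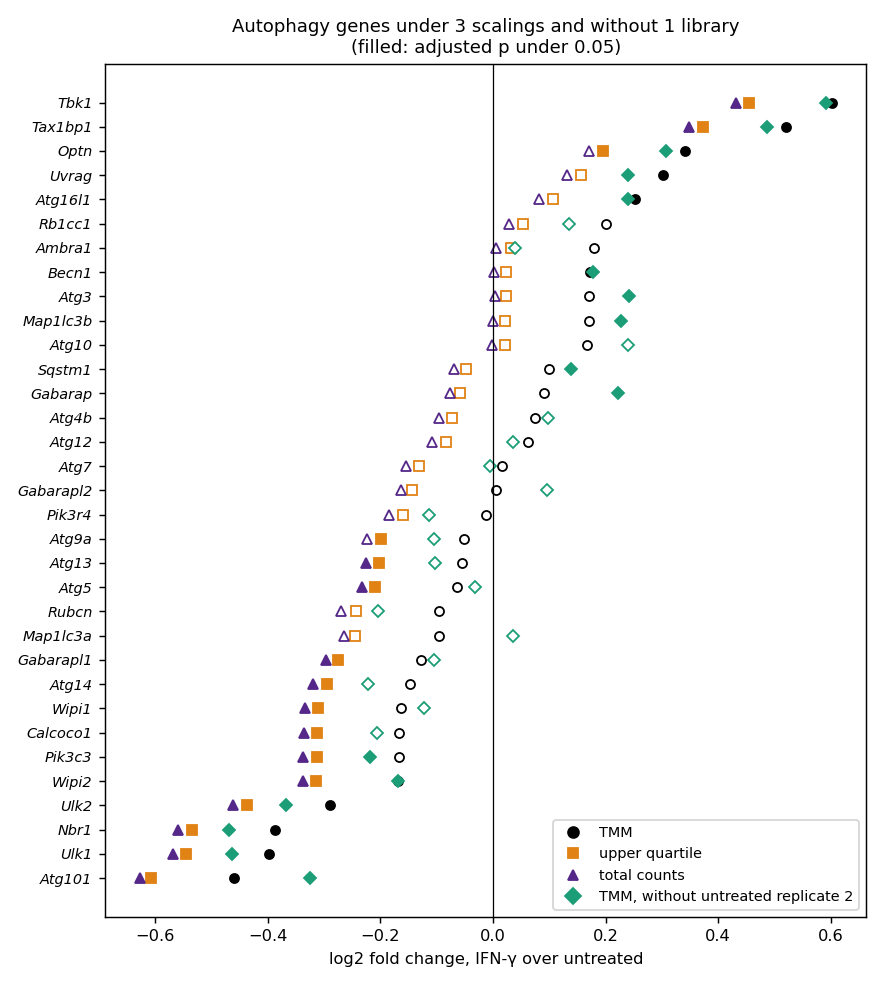
Log2 fold change (x axis, IFN-γ over untreated) of each of the 33 genes under TMM, upper quartile and total count scaling, and under TMM without untreated replicate 2. Filled symbols have an adjusted p under 0.05, and the whole series of orange squares and purple triangles lies to the left of the black circles, while Tbk1 and Tax1bp1 are filled on the right and Nbr1 and Ulk1 on the left in all 4.

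The genes of the initiation kinase complex were lower or not called. Ulk1, the gene of the kinase that starts autophagosome formation, had 11.2, 10.8 and 10.3 CPM with IFN-γ, against 15.6, 12.8 and 14.1 CPM in untreated libraries. Every IFN-γ library lay below every untreated library, and the lowest untreated value was again that of replicate 2. Ulk1 fell by 0.40 ± 0.09 (SE) on the log2 scale, with an edgeR adjusted p of 0.00946 and 319 to 476 counts per library. The tables place it on chromosome 5, minus strand, from 110932355 to 110957991, in coordinates whose build they do not name. Its close relative Ulk2, which can act in place of Ulk1, had 41.3, 38.5 and 37.1 CPM with IFN-γ, against 51.1, 42.4 and 49.5 CPM in untreated libraries. The groups did not overlap, but IFN-γ replicate 1 and untreated replicate 2 were close. Ulk2 fell by 0.29 ± 0.08 on the log2 scale (edgeR adjusted p = 0.0272), a call lost without IFN-γ replicate 2 (0.0971) or 3 (0.106) or without untreated replicate 1 (0.081) or 3 (0.0892). Atg101, a small subunit that binds and stabilizes ATG13, had 16.5, 19.2 and 20.4 CPM with IFN-γ, against 23.7, 30.4 and 23.1 CPM in untreated libraries. Untreated replicate 2 was the highest here, and the groups did not overlap. Atg101 fell by 0.46 ± 0.13 on the log2 scale (edgeR adjusted p = 0.0221), and by 0.32 without that library. Its call was lost without IFN-γ replicate 1 (0.0701) or 2 (0.06). The scaffold subunit gene Rb1cc1, which encodes FIP200, had a log2 fold change of 0.20 ± 0.07 (edgeR adjusted p = 0.0674), and Atg13, the adaptor subunit, had -0.055 ± 0.07 (0.584). The 5 genes of the complex gave 0 higher and 3 lower calls, against 19.6% and 16.8% of all genes. Their median log2 fold change was -0.29. Under upper quartile scaling or total counts, 4 of the 5 were lower, against 31.6% and 34.9% of all genes. With the trend on exon length taken out, Rb1cc1 was called higher (0.19, edgeR adjusted p = 0.02), and without IFN-γ replicate 2 only Ulk1 kept a call.

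Genes of the Beclin 1 lipid kinase complexes were mostly not called. These complexes hold the kinase VPS34, encoded by Pik3c3, and exist in a form with ATG14 that acts in autophagosome formation and a form with UVRAG that acts in endosome and autophagosome maturation. Uvrag had 48.5, 48.3 and 46.4 CPM with IFN-γ, against 40.5, 35.2 and 40.3 CPM in untreated libraries. All IFN-γ values were above all untreated values, with untreated replicate 2 the lowest. Uvrag rose by 0.30 ± 0.07 on the log2 scale (edgeR adjusted p = 0.0109). Under upper quartile scaling (0.16, adjusted p = 0.0886) or total counts (0.13, 0.223) the call was lost, and likewise without IFN-γ replicate 1 (0.056) or 2 (0.051). Becn1, the gene of Beclin 1, had 80.2, 78.2 and 82.5 CPM with IFN-γ, against 71.1, 71.9 and 70.8 CPM in untreated libraries. The groups did not overlap, though the gap was small. Becn1 rose by 0.17 ± 0.05 (edgeR adjusted p = 0.0307), a call that 11 of 16 alternatives lost. Its log2 fold change was 0.002 with total counts, and the call was lost without any 1 of the IFN-γ replicates (0.0924, 0.082 and 0.126 for replicates 1, 2 and 3) or without untreated replicate 1 (0.0867) or 3 (0.133). On the other strand, exons of Cntd1 covered 18.4% of the exon bases of Becn1, with a mean of 13 counts against 2369 for Becn1.

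The other 5 genes of these complexes were not called. Pik3c3 had a log2 fold change of -0.17 ± 0.07 (edgeR adjusted p = 0.104, and 0.0114 without untreated replicate 2). Atg14, which directs the complex to the site of autophagosome formation, had -0.15 ± 0.10, and Pik3r4, the gene of the regulatory subunit VPS15, had -0.013 ± 0.14. Pik3r4 was also the most variable member within the IFN-γ group, at 27.2, 20.3 and 20.2 CPM, against 23.5, 19.5 and 25.3 CPM in untreated libraries. Rubcn, the gene of Rubicon, which restrains the UVRAG form and acts in LC3-associated phagocytosis, had -0.096 ± 0.12. Ambra1, the gene of a scaffold that binds Beclin 1, had 0.18 ± 0.13. With total counts, 0 of the 7 genes were higher and 2 were lower, against 12.8% and 34.9% of all genes. The upper quartile gave the same counts, against 13.9% and 31.6% of all genes.

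Genes for membrane supply and for reading the lipid mark gave no calls among 3. Upper quartile scaling called 3 of them lower and total counts 2, against 31.6% and 34.9% of all genes. Atg9a, the gene of a lipid scramblase carried in vesicles, had a log2 fold change of -0.051 ± 0.07, and 30.2% of the 50-base stretches in its transcripts also occurred in another gene. Wipi1 and Wipi2 encode proteins that bind the lipid made by VPS34. Wipi1 had -0.16 ± 0.11. Wipi2 had 34.2, 35.1 and 32.7 CPM with IFN-γ, against 38.9, 38.2 and 37.6 CPM in untreated libraries. Its groups did not overlap, but at -0.17 ± 0.06 it just missed the threshold (edgeR adjusted p = 0.052, and 0.0299 without untreated replicate 2). Wipi2 was called lower in 6 of 16 alternatives, also with the filter of 5 CPM in 3 libraries and with the exon length trend taken out.

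Of the 7 conjugation enzyme genes, 1 rose and none fell, against 19.6% and 16.8% of all genes. Atg16l1 encodes the protein that places the ATG12-ATG5 conjugate on the membrane, and it is known from mice as a gene needed for resistance to Toxoplasma gondii in IFN-γ-activated macrophages. It had 37.9, 40.1 and 38.8 CPM with IFN-γ, against 31.8, 32.1 and 34.0 CPM in untreated libraries. The groups were separate and each was tight. Atg16l1 rose by 0.25 ± 0.06 on the log2 scale (edgeR adjusted p = 0.011), and it was not called under upper quartile scaling (0.11, adjusted p = 0.173), with total counts (0.08, 0.332) or without IFN-γ replicate 2 (0.0668). Its partners Atg5 and Atg12 had log2 fold changes of -0.063 ± 0.06 and 0.063 ± 0.06. Atg5 was called lower under upper quartile scaling and total counts, where 31.6% and 34.9% of all genes were lower. It was the only call among the 7 genes under either scaling. Atg7, which activates both ubiquitin-like proteins, had 0.017 ± 0.07, and 14% of its exon bases were overlapped by Vgll4 on the other strand. Atg3, the conjugating enzyme for ATG8 proteins, had 0.17 ± 0.07 (edgeR adjusted p = 0.104), or 0.24 without untreated replicate 2 (0.00477). Atg10, the conjugating enzyme for ATG12, had 0.17 ± 0.11, and Atg4b, the protease that prepares and releases ATG8 proteins, had 0.074 ± 0.06.

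None of the 5 genes of the ATG8 family was called, and Gabarap was by far the most abundant in both groups. On the deposited TPM scale, which divides by exon length and lets genes be compared, it was at 1090.0 ± 21.0 TPM with IFN-γ and 1106 ± 84.2 TPM in untreated libraries (mean ± SD, n = 3 each). It made up 74.8%, 75.6% and 75.7% of the summed TPM of the family with IFN-γ, against 72.9%, 75.6% and 73.4% in untreated libraries. Those shares overlapped between the groups. Gabarapl2 was at 122 ± 3.63 TPM with IFN-γ and 132 ± 4.09 TPM untreated, and Gabarapl1 at 116 ± 4.37 TPM with IFN-γ and 137 ± 7.62 TPM untreated. The means of these neighbours stood in opposite order in the groups, and in untreated libraries their difference was within their spread. Their order also varied between libraries of a group. Gabarapl1 stood above Gabarapl2 in IFN-γ replicate 1 (120.7 against 119.1 TPM) and below it in untreated replicate 2 (129.7 against 136.1 TPM). Map1lc3b was at 95.6 ± 1.65 TPM with IFN-γ and 92.2 ± 2.79 TPM untreated, and Map1lc3a at 22.9 ± 1.41 TPM with IFN-γ and 26.4 ± 2.72 TPM untreated. The TPM of a library sum to a fixed total, so a difference in TPM carries total count scaling and can run below the TMM value.

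On the TMM scale Map1lc3b, which encodes the LC3B protein used as the standard marker of autophagosomes, had 119.7, 124 and 123 CPM with IFN-γ, against 102, 117 and 107 CPM in untreated libraries. The groups did not overlap, and untreated replicate 2 came closest to the IFN-γ libraries. Its log2 fold change was 0.17 ± 0.06 (edgeR adjusted p = 0.0745), and 0.23 without that library (0.00369). Gabarap had 574, 626 and 634 CPM with IFN-γ, against 510.4, 674 and 538 CPM in untreated libraries. Untreated replicate 2 was the highest of all 6 libraries. The log2 fold change of Gabarap was 0.090 ± 0.11 (edgeR adjusted p = 0.555), 0.22 without that library (0.0128) and -0.077 with total counts. Gabarapl1 had 103, 103 and 102 CPM with IFN-γ, against 107.5, 115 and 113 CPM in untreated libraries. Its log2 fold change was -0.13 ± 0.05 (edgeR adjusted p = 0.0935). Gabarapl1 was called lower under upper quartile scaling (-0.275), with total counts (-0.30) and with the filter of 5 CPM in 3 libraries. Gabarapl2 had 56.0, 60.3 and 63.3 CPM with IFN-γ, against 56.9, 66.9 and 55.1 CPM untreated, and Map1lc3a 11.3, 12.9 and 11.6 CPM with IFN-γ, against 10.8, 15.1 and 12.5 CPM untreated. Both overlapped between the groups, with log2 fold changes of 0.006 ± 0.09 for Gabarapl2 and -0.096 ± 0.12 for Map1lc3a. Of the 50-base stretches of Gabarapl2, 12.2% occurred in another gene, and of Map1lc3b 5.77%.

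**Figure D3:**
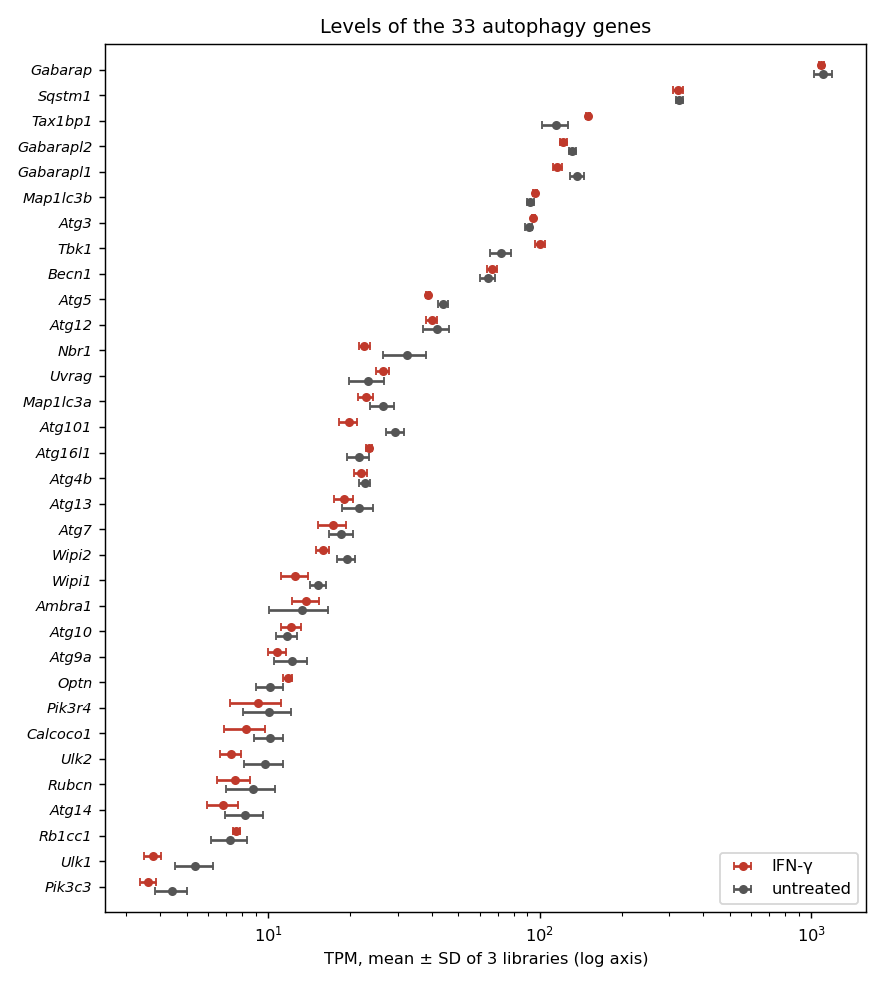
Deposited TPM (x axis, log scale, mean ± SD of 3 libraries) of each of the 33 genes with IFN-γ and in untreated macrophages, ordered by level. Gabarap lies at about 1090.0 TPM and Sqstm1 at 323 TPM with IFN-γ, and Ulk1 and Pik3c3 lie at the low end with 3.75 and 3.61 TPM.

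The cargo receptors and their kinase held the 3 largest rises among the members. TBK1 is a kinase that phosphorylates cargo receptors, among them optineurin and p62, and also acts in the induction of type I interferon. Tbk1 had 153, 152.5 and 149 CPM with IFN-γ, against 98.8, 98.5 and 102 CPM in untreated libraries. The groups stood far apart relative to their spread, with counts of 4971, 4684 and 4631 against 2974, 2910 and 3451. Tbk1 rose 1.52-fold, a log2 fold change of 0.60 ± 0.05 (edgeR adjusted p = 3.88e-05). Over the alternatives its log2 fold change ran from 0.43 to 0.62. The tables place Tbk1 on chromosome 10, minus strand, from 121382360 to 121422699. Tax1bp1, the gene of a receptor for ubiquitin-tagged cargo that also takes part in the A20 complex restraining NF-κB, had 279, 286 and 289.6 CPM with IFN-γ, against 205, 189 and 202 CPM in untreated libraries. Again no library crossed between the groups. Tax1bp1 rose 1.43-fold, a log2 fold change of 0.52 ± 0.06 (edgeR adjusted p = 0.000172), with a range from 0.35 to 0.54 over the alternatives. The tables place it on chromosome 6, plus strand, from 52690677 to 52743765.

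Optn, the gene of optineurin, a receptor for ubiquitin-tagged bacteria and mitochondria, had 27.3, 26.8 and 28.0 CPM with IFN-γ, against 22.4, 20.5 and 21.8 CPM in untreated libraries. The groups were separate and each spread by little. Optn rose by 0.34 ± 0.06 on the log2 scale (edgeR adjusted p = 0.00387), and by total counts alone the call was lost (0.17, adjusted p = 0.0845). Nbr1, the gene of a receptor for protein aggregates and peroxisomes, went the other way. It had 58.5, 56.6 and 59.2 CPM with IFN-γ, against 84.8, 67.1 and 76.0 CPM in untreated libraries. The 3 IFN-γ libraries lay close together, and the untreated libraries, all higher, were spread with replicate 2 the lowest. Nbr1 fell by 0.39 ± 0.09 on the log2 scale (edgeR adjusted p = 0.00864), with a range from -0.56 to -0.30 over the alternatives. The tables place Nbr1 on chromosome 11, plus strand, from 101442933 to 101472777. Sqstm1 encodes p62, the most abundant of these receptors by TPM. It had 929, 902 and 919.8 CPM with IFN-γ, against 826, 899 and 839.8 CPM in untreated libraries. The groups did not overlap, yet untreated replicate 2 came within a few CPM of the lowest IFN-γ library. Its log2 fold change was 0.10 ± 0.06 (edgeR adjusted p = 0.242), 0.14 without that library (0.0385) and -0.069 with total counts. Calcoco1, the gene of a receptor for the endoplasmic reticulum and Golgi, had -0.17 ± 0.11 (0.268).

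**Figure D4:**
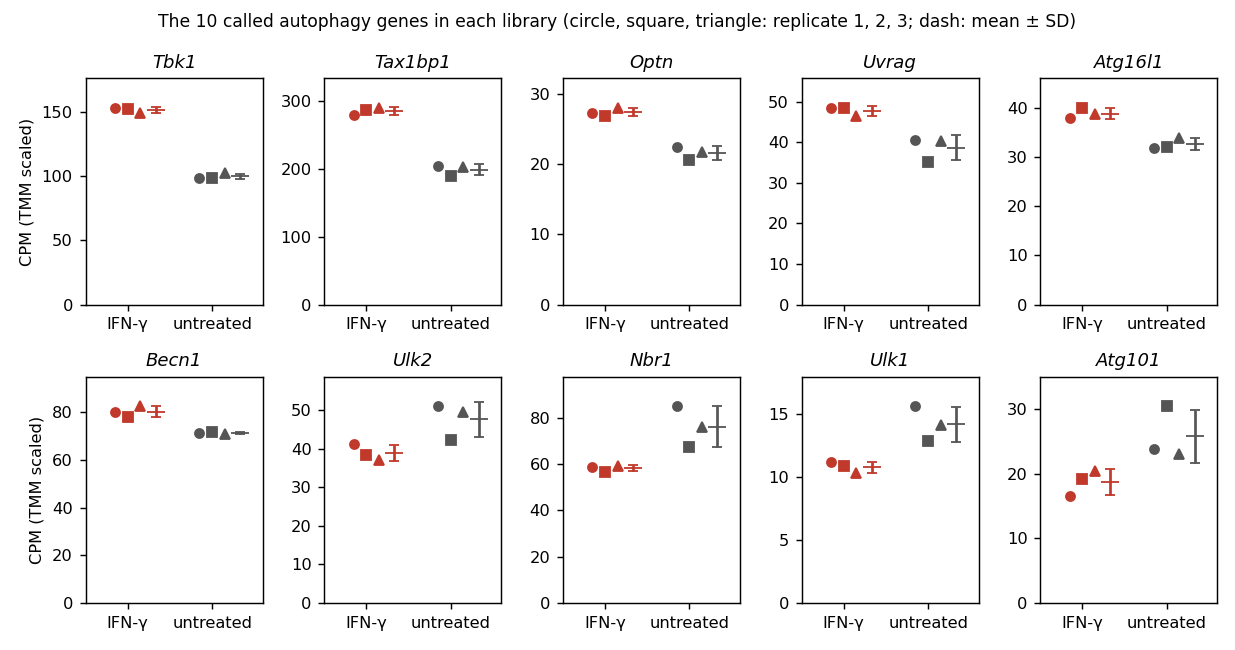
CPM (y axis, TMM scaled, from 0) of the 10 called genes in each IFN-γ and untreated library, with a mean ± SD at the side and a marker for each replicate number. Tbk1 lies at 149 to 153 CPM with IFN-γ and at 98.5 to 102 CPM untreated, and the square of untreated replicate 2 is the lowest untreated point for Tbk1, Tax1bp1, Optn, Nbr1, Ulk1, Ulk2 and Uvrag and the highest for Atg101 and Becn1.

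Ratios between members within a library need no scaling of libraries, so 6 pairs were compared in that way. The pairs were chosen after their values were seen. Ratios of TPM of Tax1bp1 to Nbr1 were 6.49, 6.88 and 6.66 with IFN-γ, against 3.28, 3.84 and 3.62 in untreated libraries, a difference of 0.90 log2 units. Ratios of Tbk1 to Ulk1 were 26.1, 26.7 and 27.6 with IFN-γ, against 12.0, 14.6 and 13.8 in untreated libraries, a difference of 0.997. No library crossed between the groups in either ratio. Optn to Nbr1 was 0.522 ± 0.00425 with IFN-γ and 0.316 ± 0.0231 untreated (SD, n = 3 each), and Tax1bp1 to Sqstm1 was 0.467 ± 0.0139 and 0.350 ± 0.0298. Uvrag to Atg14, the subunits that set the forms of the lipid kinase complex apart, was 3.89 ± 0.294 with IFN-γ and 2.84 ± 0.07 untreated. Atg16l1 to Atg5 was 0.609 ± 0.0236 with IFN-γ and 0.489 ± 0.0269 untreated. All 6 ratios were higher in every IFN-γ library, and each gave p = 0.1 in a two-sided exact permutation test (0.1 after adjustment over the 6 pairs), the smallest p that 3 libraries against 3 allow. Because the pairs were picked with their values known, this separation and its p add no support to the calls. A library's trend on exon length stays in a ratio of genes that differ in length, as Tbk1 (3031 bases) and Ulk1 (5753 bases) do.

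Promoter sequences from RefSeq (build GRCm38.p6), which run from 250 bases before to 50 bases after a gene's start, were matched for 27 of the 33 genes. Atg12, Atg16l1, Becn1, Map1lc3a, Pik3c3 and Rb1cc1 were not matched. They were searched on both strands for GAAA followed by any 2 bases and GAAA again, the ISRE motif bound by interferon regulatory factors, and for TCACGTGA, the core of the CLEAR motif of TFEB, a transcription factor of autophagy and lysosome genes. The ISRE letters were found in windows of 1 of 27 members (Nbr1), against 3.99% of 27025 genes, and the CLEAR letters in 1 of 27 (Atg3), against 1.12%. Of the 6 genes that rose, Tbk1, Tax1bp1, Optn and Uvrag were searched and held neither.

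The windows printed are those of Tbk1 and Tax1bp1, the genes with the largest rises, in which neither motif was found; of Nbr1, which fell and whose second listed start holds an ISRE match; and of Atg3, with its CLEAR match. They are given from 5′ to 3′ on the strand of the gene, and capitals mark the matches. The Nbr1 window lies at chr11:101552404-101552703 (plus strand), with the match starting 9 bases before the start. The Tbk1 window lies at chr10:121586745-121587044 (minus strand), the first Tax1bp1 window at chr6:52713479-52713778 (plus strand) and the Atg3 window at chr16:45158579-45158878 (plus strand), its match 72 bases before the start.
Nbr1: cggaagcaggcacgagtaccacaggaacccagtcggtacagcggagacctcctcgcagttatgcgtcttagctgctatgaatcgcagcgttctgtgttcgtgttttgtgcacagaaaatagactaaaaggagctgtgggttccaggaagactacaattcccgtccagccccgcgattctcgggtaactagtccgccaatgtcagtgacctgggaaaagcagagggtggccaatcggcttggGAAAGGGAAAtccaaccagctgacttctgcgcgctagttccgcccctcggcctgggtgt
Tbk1: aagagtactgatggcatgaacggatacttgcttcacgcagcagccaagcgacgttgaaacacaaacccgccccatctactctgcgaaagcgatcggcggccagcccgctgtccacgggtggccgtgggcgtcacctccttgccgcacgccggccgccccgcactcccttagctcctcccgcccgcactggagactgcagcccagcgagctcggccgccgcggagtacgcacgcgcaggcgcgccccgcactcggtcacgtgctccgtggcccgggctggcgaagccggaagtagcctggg
Tax1bp1: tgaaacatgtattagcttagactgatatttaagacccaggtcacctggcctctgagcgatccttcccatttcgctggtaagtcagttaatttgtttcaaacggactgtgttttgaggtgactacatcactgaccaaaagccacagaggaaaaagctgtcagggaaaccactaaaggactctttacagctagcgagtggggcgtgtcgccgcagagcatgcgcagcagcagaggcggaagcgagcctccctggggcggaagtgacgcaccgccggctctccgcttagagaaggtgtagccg
Atg3: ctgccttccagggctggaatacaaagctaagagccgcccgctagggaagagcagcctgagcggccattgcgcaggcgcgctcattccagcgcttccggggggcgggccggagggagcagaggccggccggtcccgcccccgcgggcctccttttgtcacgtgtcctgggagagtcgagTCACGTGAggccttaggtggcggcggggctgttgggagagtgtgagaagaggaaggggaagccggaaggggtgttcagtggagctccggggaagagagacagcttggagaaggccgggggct
A match describes letters in these windows and was not tested as a binding site. The other Tax1bp1 window and the other Nbr1 window held neither motif.

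Around the 33 members, 77 other genes of the pathway in 6 lists gave 18 higher and 13 lower calls among 76 tested, or 23.7% and 17.1%, against 19.6% and 16.8% of all genes, with a median log2 fold change of 0.036. These lists were chosen with earlier results of these data known, so their counts and medians only describe the genes listed. The lists with the highest medians were those of the partners of TBK1 and of proteins that mark damaged vacuoles and mitochondria. All 4 genes of the TBK1 partner list rose, with a median of 0.88, and rose under each other scaling. Ikbke, the gene of the related kinase IKKε, had 193, 193 and 189.8 CPM with IFN-γ, against 89.4, 77.6 and 87.7 CPM untreated, and rose by 1.18 ± 0.07 on the log2 scale (edgeR adjusted p = 3.8e-06). The adaptor genes Tank and Azi2, whose proteins bind TBK1, rose by 0.99 ± 0.08 and 0.77 ± 0.06. Exons of Azi2 were overlapped on the other strand by Cmc1 over 15.8% of their bases. Of 9 genes in the tagging list, 5 rose and 1 fell, with a median of 0.49. Rnf213, a very large ubiquitin ligase that coats intracellular bacteria, had 841, 625.5 and 598 CPM with IFN-γ, against 204, 129 and 174 CPM untreated, and rose by 2.03 ± 0.19 (edgeR adjusted p = 7.51e-05). Rnf31, the catalytic subunit of the linear ubiquitin ligase, rose by 1.11 ± 0.07. Lgals8, the gene of galectin-8, which detects damaged vacuoles, rose by 0.86 ± 0.05 to 204 ± 2.50 CPM, against 112.5 ± 4.23 CPM untreated (SD, n = 3 each).

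**Figure D5:**
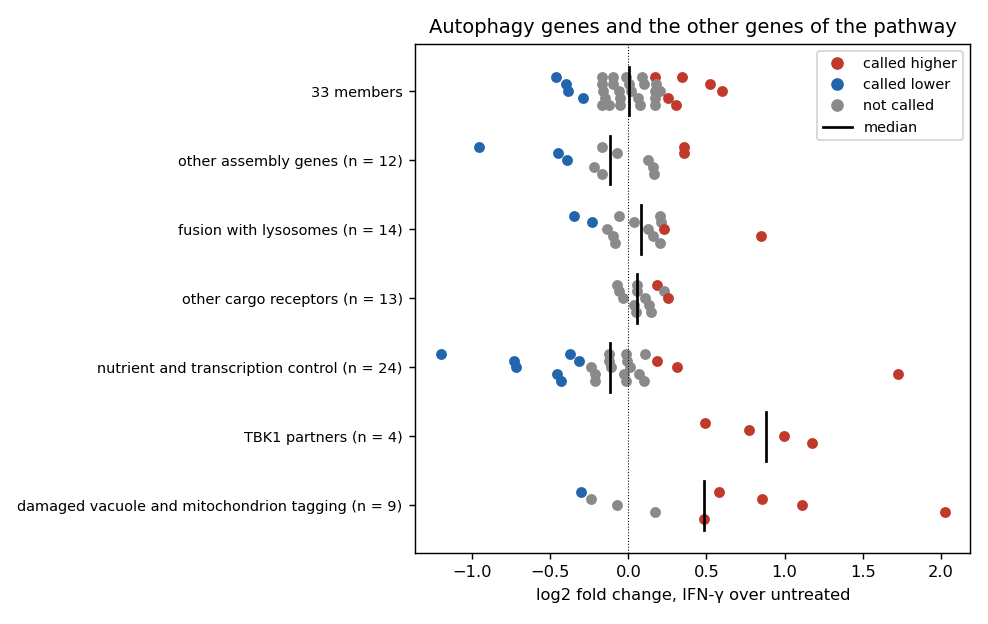
Log2 fold change (x axis, IFN-γ over untreated) of the 33 members and of the tested genes in 6 further lists, 1 point per gene coloured by call, with the median of each list as a black bar. The points of the TBK1 partner list all lie right of 0, from 0.49 to 1.18, while the members lie between -0.46 and 0.60.

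The other 4 lists had medians near 0. Among 24 genes of nutrient sensing and transcriptional control, 3 rose and 7 fell, against 19.6% and 16.8% of all genes. The median of the list was -0.117. Under upper quartile scaling or total counts, 15 of the 24 were lower, against 31.6% and 34.9% of all genes. Sesn1, the gene of a sestrin, which restrains the growth kinase complex mTORC1, had 36.7, 40.5 and 41.8 CPM with IFN-γ, against 92.8, 87.5 and 93.3 CPM untreated. It fell by 1.20 ± 0.07 on the log2 scale (edgeR adjusted p = 3.59e-06). Its relative Sesn3 was low, at 2.98 ± 0.276 CPM with IFN-γ and 0.893 ± 0.375 CPM untreated, and rose by 1.73 ± 0.26. Foxo3, a transcription factor gene known to induce autophagy genes in muscle, fell by 0.73 ± 0.10. Tfeb had -0.21 ± 0.08 (edgeR adjusted p = 0.0613) and is named outside the rule, because its motif was searched. Among 12 further assembly genes, 2 rose and 3 fell. Atg9b, the second ATG9 gene, had 5.44 ± 0.737 CPM with IFN-γ and 10.6 ± 1.08 CPM untreated and fell by 0.96 ± 0.12 (edgeR adjusted p = 0.000512). The ATG4 protease gene Atg4c and the lipid reader gene Wdr45 fell by 0.45 ± 0.07 and 0.39 ± 0.08. Under upper quartile scaling, 0 of these 12 were higher and 5 were lower, against 13.9% and 31.6% of all genes. Total counts gave the same counts, against 12.8% and 34.9% of all genes.

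Among 14 genes of fusion with lysosomes, 2 rose and 2 fell, against 19.6% and 16.8% of all genes. Without untreated replicate 2 there were 4 of each, against 24% and 21.1% of all genes. Snap29, a SNARE gene of autophagosome fusion, had 99.1, 95.8 and 96.4 CPM with IFN-γ, against 55.9, 51.9 and 54.2 CPM untreated, and rose by 0.85 ± 0.06 (edgeR adjusted p = 8.4e-06). Tecpr1 and the SNARE gene Ykt6 fell by 0.35 ± 0.06 and 0.23 ± 0.05, Ykt6 losing its call without IFN-γ replicate 2 (0.0565). Among 14 other cargo receptor genes, 13 were tested, and 2 rose and none fell, or 5 and 1 without untreated replicate 2. These were Retreg1, a receptor of the endoplasmic reticulum, at 0.25 ± 0.06, and the mitochondrial receptor gene Fundc1, at 0.185 ± 0.05. Neither was called under upper quartile or total count scaling, and Fundc1 lost its call also without any 1 library other than untreated replicate 2. The gene that was not tested, Calcoco2, had 0 counts in all 6 libraries.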

How the data were processed

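Messenger RNA libraries were made with the KAPA Stranded kit, per the labels' protocols, and the submitters' processing notes name HISAT2 and the build mm10, with no settings. No label or header names the counting tool or says whether it used strand. Tests used the raw counts per gene that the authors deposited. The deposited TPM and FPKM values, which the authors scaled per exon length and library, could be rebuilt from counts and exon lengths to within 7.28e-11. Coordinates are not those of mm10 (0 of 33 members had the same start and end in RefSeq GRCm38.p6), so they are printed as the tables give them.

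The members, lists and pairs were chosen with earlier results of these data known. Every member is named. Of each further list, up to 3 called genes with the largest change and a mean of at least 1 CPM are named. Counts were filtered with filterByExpr (minimum count 10, total 15), scaled by TMM and tested, IFN-γ over untreated, with glmQLFit and glmQLFTest in edgeR 4.0.16 (R 4.3.3), as a two-sided test, and p-values were adjusted over 12968 genes (Benjamini-Hochberg). The SE is the log2 fold change over the square root of F. In data simulated from these libraries for this comparison over 12829 genes, 72.9% of 48 genes with a 1.5-fold change and 91.8% of 49 with a 2-fold change were called. That simulation left 12633 genes unchanged and held no trend on exon length, whereas 36.4% of genes were called in the real libraries. Its shares may therefore not hold for them. No 2 replicates of a group came within counting noise of each other (lowest chi-square over its degrees of freedom 2.05). The alternatives were 3 other scalings, 2 filters, DESeq2 1.42.0, limma-voom 3.58.1, the replicate block, a threshold of 0.01, an exon length trend taken out per library, and each library left out. Shared sequence was counted in GENCODE M21 transcripts, in stretches of 50 bases. Ratios, permutations and figures used Python 3.11.15. A further promoter motif is not reported here.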

Additional observations from a re-analysis of the deposited data

How the results depend on the processing

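Of the 10 called members, 4 kept their call in each of the 16 alternatives, 6 lost it in at least 1, and none changed direction. Of the 23 not called, 14 were called in at least 1 alternative and 9 changed sign in at least 1, and the cause was not tested. These counts are for members only, so they do not show whether members were more or less stable than other genes. With total counts alone, 1666 genes were higher and 4520 lower, 2 and 12 members, and 10 and 29 genes of the further lists. With upper quartile scaling, 4097 genes were lower, 3 members higher and 13 lower, and 11 and 29 genes of the further lists. At a threshold of 0.01, 1795 genes were higher and 1242 lower, and 3 members were higher and 2 lower. With the trend on exon length removed, 10 members were higher and 6 lower, against 3352 and 2616 of all genes (46% called). With each library left out in turn, the members called ranged from 3 to 10 higher and 2 to 6 lower, and the further lists from 14 to 23 higher and 9 to 21 lower; all genes ranged from 1991 to 3174 higher and 1451 to 2793 lower. DESeq2 and limma-voom each called 6 members higher and 4 lower. DESeq2 called 29.2% of 15129 genes and limma-voom 36.3% of 12968 genes, so these shares are over different sets of genes.

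The replicate number as a block gave 5 members higher and 4 lower, and 2723 genes higher and 2327 lower. Becn1 lost its call (adjusted p = 0.0613). Libraries with the same number did not all deviate together, with correlations over genes of 0.31, 0.14 and -0.07 for numbers 1, 2 and 3. Between libraries with different numbers they ran from -0.34 to 0.24, so the highest of all was that of number 1. As the labels do not say that the number pairs libraries, it was used as a block only in this alternative.

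The members that changed sign were all among those not called. With upper quartile scaling and total counts the log2 fold changes were -0.084 and -0.108 for Atg12, -0.073 and -0.095 for Atg4b, -0.131 and -0.154 for Atg7, -0.058 and -0.077 for Gabarap, -0.143 and -0.163 for Gabarapl2, and -0.048 and -0.069 for Sqstm1, and with total counts -0.001 for Atg10. With a filter of 5 CPM in 3 libraries they were -0.014 for Atg7 and -0.024 for Gabarapl2. With a library left out they ranged from -0.068 to 0.059 for Atg7, from -0.059 to 0.096 for Gabarapl2, from -0.202 to 0.035 for Map1lc3a and from -0.184 to 0.061 for Pik3r4. The members with the fewest counts, whose values depth limits most, were Wipi1, Ulk1, Atg10, Map1lc3a and Atg14, at 316 to 477 counts per library.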
